A study of Homo sapiens with 3 samples.

Results

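The mitochondrial ribosomal proteins are the nuclear-encoded subunits of the ribosome inside mitochondria, named MRPL in the large subunit and MRPS in the small one. Their transcripts were followed in the established human myeloma line MM1S during exposure to FK866, which inhibits NAMPT, the enzyme that recycles nicotinamide into NAD. The members are the probe sets whose annotation gives exactly 1 gene symbol that begins with MRPL or MRPS and a digit. They number 142 of 54675 probe sets on the array, and 132 of them had a mean signal of 20 or more over the 3 arrays. These 132 covered all 75 annotated protein-coding members, 48 MRPL and 27 MRPS genes, and the antisense RNA MRPL20-AS1, while the pseudogene MRPL45P2 was too dim. The groups were cells cultured without FK866, labelled as 0 h, and cultures exposed to 10 nM FK866 for 6 h or for 24 h, all grown in RPMI-1640 with serum. Each group is 1 array, which leaves no replicate and no test. With 1 untreated array, at 0 h, the drug and the time in culture cannot be told apart. In RNA from whole cultures, fewer cells with a transcript and less of it per cell cannot be told apart either.

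Human mitochondrial DNA encodes a small set of respiratory chain and ATP synthase subunits and the RNAs needed to translate them. Every protein of the mitochondrial ribosome is encoded in the nucleus, made in the cytosol and imported. The large subunit holds the peptidyl transferase centre and the exit tunnel, and the small subunit binds the messenger RNA and decodes it. NAD is the electron carrier that feeds complex I of the respiratory chain.

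Signals are in arbitrary units on a linear scale, and a level of 16 served as a floor below which values were not ordered. Over the 11330 measured genes the median log2 difference from untreated cells was -0.10 after 6 h and -0.13 after 24 h, so each difference below is to be read against these shifts. Of 10 markers of plasma cells and myeloma, 10 were measured, with untreated signals from 575 for CD38 to 12686 for JCHAIN. Markers of other cells were mostly unmeasured: 1 of 6 for T and NK cells (GNLY), 1 of 5 for myeloid cells (CSF1R), 1 of 5 for stroma (COL1A1) and 1 of 4 for epithelium (KRT8). Over the 3 arrays in time order, GNLY had 28.5, 48.5 and 37.7, CSF1R had 29.7, 22.1 and 24.7, and KRT8 stayed at 26.4 or less. COL1A1 had 101.5, 53.4 and 19.3, with its second probe set at a log2 difference of 0.52 at 24 h. Their part in the results was not tested.

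The members lay well above the floor. By the brightest probe set of each gene, mean signals ran from 134.8 for MRPL2 to 4658 for MRPL3, with a median of 1091, and 64 of 75 genes reached 500. Brightness depends on the probe as well as the transcript, so members are not ranked by it. In MRPL3, a core protein near the peptidyl transferase centre, the signal was 4775 without FK866, 4495 after 6 h and 4704 after 24 h. MRPL47 had 4720.0 without FK866, 4475 after 6 h and 3938 after 24 h. The other members of the brightest 5 were MRPL20 (4191, 3368 and 3598 in the order untreated, 6 h, 24 h), MRPL51 (3500, 3421 and 3125) and MRPL32 (3479, 3518 and 3039). All 5 differed from untreated cells by 1.24-fold or less at both times.

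At 6 h, the family's median was close to that of the measured genes. Its median log2 difference was -0.09, against -0.10 over all measured genes, with the middle 50% of members between -0.21 and 0.01. Above the all-gene median lay 42 of the 75 members, and 33 lay below. This depends on the filter together with the floor. With no filter on level 19775 genes were counted, and a gene under the floor on both arrays has a difference of exactly 0. The median of all genes was then 0.00, and 20 members lay above it and 55 below. MRPS31, a mitochondrion-specific protein of the small subunit, was the only gene at least 1.5-fold higher, and 0 genes were at least 1.5-fold lower. Among all measured genes, 5.38% were higher by that size and 10.4% lower. Among those with a mean signal of 100 or more, as all 75 members had, the shares were 2.84% and 5.84%. At 2-fold, 0 members passed in any comparison, against 1.46% higher and 3.12% lower of all measured genes at 6 h, 1.11% and 4.02% at 24 h, and 1.05% and 1.84% between 24 h and 6 h.

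The signal of MRPS31 was 320.0 without FK866, 486 after 6 h and 422 after 24 h. This was a log2 difference of 0.60 at 6 h, or 1.52-fold, and 0.40 at 24 h. Its 3 measured probe sets did not agree. The second differed by only 0.11 and 0.13, with signals of 359, 387 and 392 at 0 h, 6 h and 24 h. The dimmest, with 38.2 in untreated cells, was under the floor at 6 h and at 18.7 at 24 h. By the mean over probe sets MRPS31 differed by -0.18 at 6 h. A pseudogene, MRPS31P5, is annotated on another probe set, and its part in these signals was not tested.

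The other members furthest above untreated cells at 6 h were MRPL45, MRPS10 and MRPS30. MRPL45 sits beside the exit tunnel and faces the inner membrane, where new chains are inserted. It had 302 without FK866, 414 after 6 h and 452 after 24 h, a log2 difference of 0.45 at 6 h. MRPS10, a protein of the head of the small subunit, had 987, 1290.0 and 1008 over the 3 arrays in time order, and differed by 0.39 at 6 h. Its 3 probe sets lay between 0.12 and 0.39 at 6 h and between 0.00 and 0.41 at 24 h, so all were higher at 6 h, but they spread widely at 24 h. MRPS30 had 903, 1127 and 982, a difference of 0.32 at 6 h, and its 3 probe sets ranged from -0.09 to 0.32. MRPL35, MRPL18 and MRPS9 followed with 0.21, 0.18 and 0.15.

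The members furthest below untreated cells at 6 h belonged to both subunits. MRPS28, a small subunit protein, had 1266 without FK866, 945 after 6 h and 1063 after 24 h, a log2 difference of -0.42 at 6 h. MRPL2, another core protein of the peptidyl transferase region, had 142, 108.0 and 154 in the same order, and its 2 probe sets lay at -0.74 and -0.40 at 6 h. Its 6 h array was the lowest of the 3. MRPL20 differed by -0.32. MRPS34, needed for a stable small subunit, differed by -0.31 with signals of 825, 665 and 833. MRPS27, which carries the RNA-binding pentatricopeptide fold, also differed by -0.31 with signals of 709.6, 573 and 744. Both were back near their untreated signals at 24 h.

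**Figure D1:**
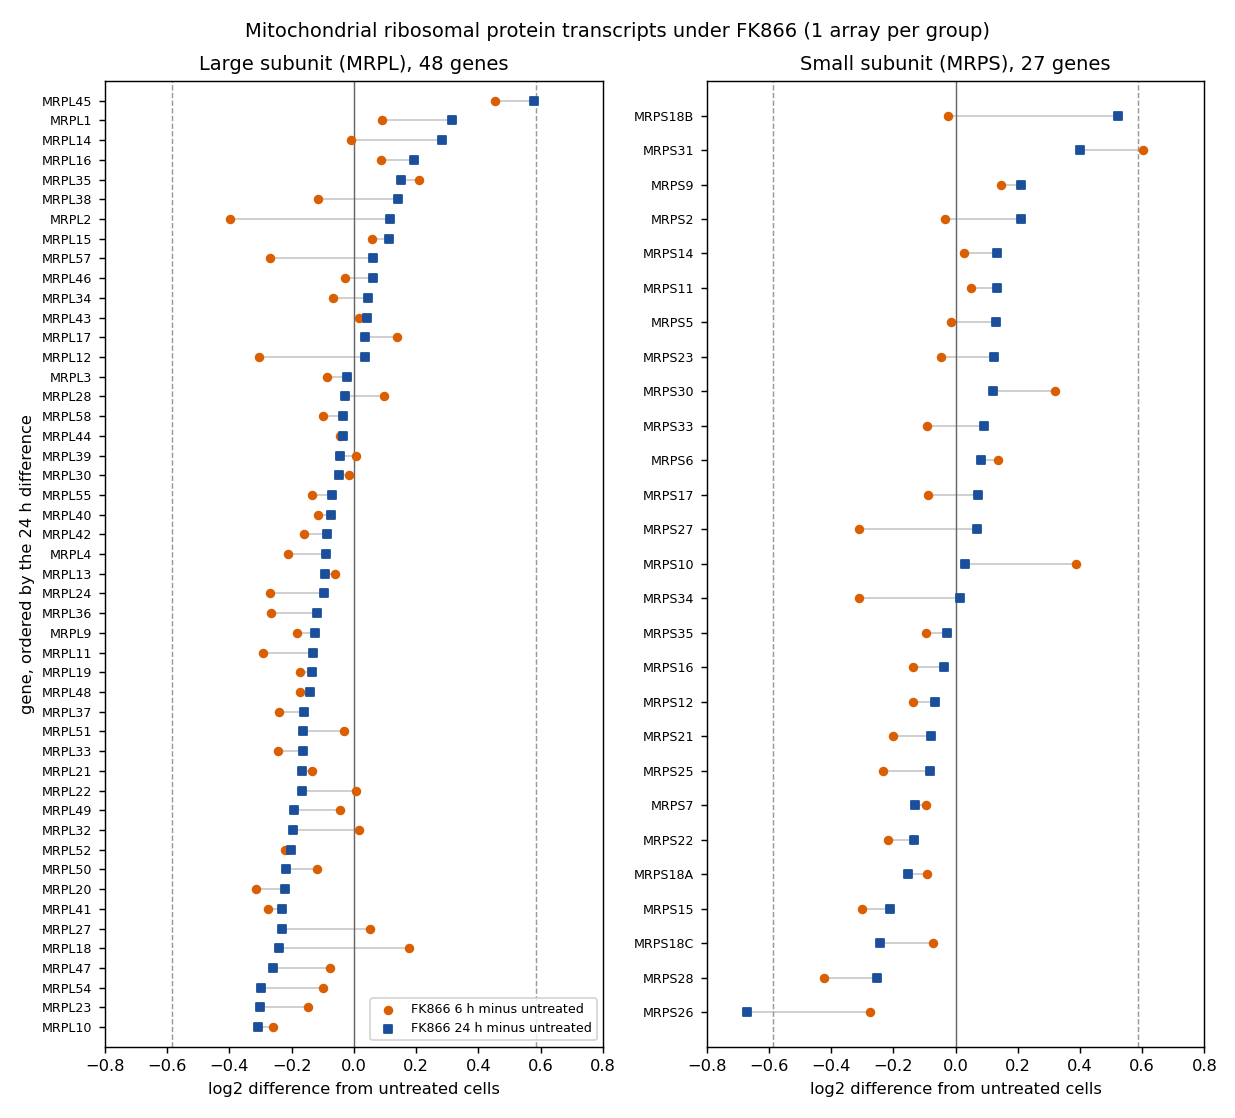
Log2 differences from untreated cells of the 75 mitochondrial ribosomal protein genes, with 1 row per gene ordered by its 24 h value, circles for FK866 6 h minus untreated and squares for FK866 24 h minus untreated, and dashed lines at 1.5-fold. MRPS31 lies past the line at 6 h and MRPS26 at 24 h, and MRPL45 at 24 h lies just inside it.

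At 24 h, the family was again close to untreated cells, with a median difference of -0.065 against -0.13 over all measured genes. Above the all-gene median lay 48 of the 75 members, and 27 lay below. MRPS26, a mitochondrion-specific protein of the small subunit, was the only gene at least 1.5-fold lower, and 0 were at least 1.5-fold higher. Of all measured genes 4.52% were higher by that size and 13.2% lower, and with a mean signal of 100 or more the shares were 2.33% and 8.43%. In the members with that signal, 1 of 75 was lower.

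MRPS26 had 503 without FK866, 415 after 6 h and 316 after 24 h. Its log2 difference was -0.28 at 6 h and -0.67 at 24 h, the latest array being the lowest. Only 1 of its 2 probe sets was measured, the other lying at 1.13 on average. It was not 1.5-fold lower once the arrays were brought to a common level, with -0.54 after quantile normalization. MRPL10, which anchors the stalk that recruits translation factors, differed by -0.31 with 618, 517 and 499.9 at 0 h, 6 h and 24 h. MRPL23, at the exit tunnel, and MRPL54 each differed by -0.30, and MRPS28 by -0.25. Their signals at 24 h were 1218, 1872 and 1063, against 1503, 2305 and 1266 in untreated cells.

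On the higher side at 24 h, MRPL45 differed by 0.58, or 1.49-fold, just inside the 1.5-fold size, and it was past it under all 3 other scalings. It has 1 probe set, so no second probe set bears on it. MRPS18B had 1639 at 24 h and 1141 in untreated cells, a difference of 0.52, and its second probe set differed by 0.16. At 6 h its brightest probe set had 1121, so in that probe set the difference lay on the 24 h array. The second probe set had 676, 770 and 753 at 0 h, 6 h and 24 h, already 0.19 higher at 6 h. MRPL1, of the stalk through which used transfer RNAs leave, had 1055, 1123 and 1311 at 0 h, 6 h and 24 h and differed by 0.31 at 24 h. MRPL14 had 1162, 1154 and 1412 and differed by 0.28. MRPS9 differed by 0.21.

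**Figure D2:**
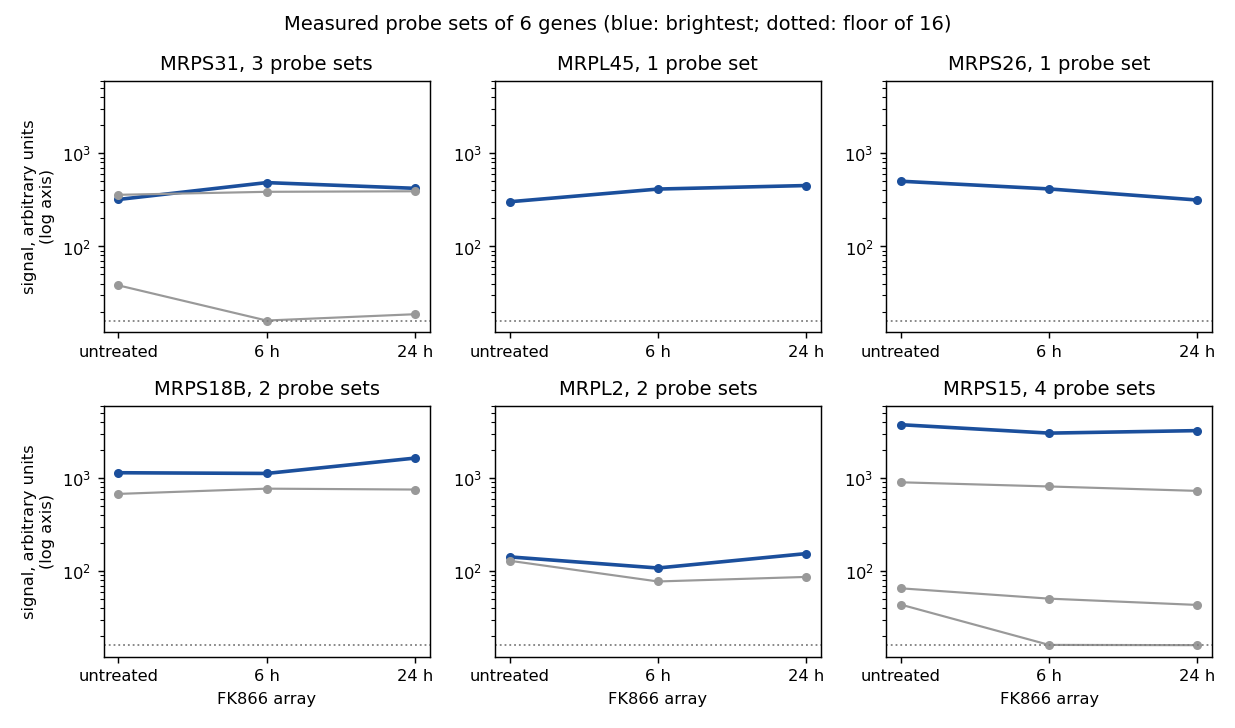
Signals of every measured probe set of MRPS31, MRPL45, MRPS26, MRPS18B, MRPL2 and MRPS15 in arbitrary units on a log axis, on the untreated, 6 h and 24 h arrays, with the brightest probe set in blue, the others in grey and the floor of 16 dotted. The dimmest probe set of MRPS31 is at the floor at 6 h while the brightest is at its highest there.

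Between the treated arrays, the members were slightly higher at 24 h than at 6 h. Their median difference was 0.065, against -0.04 over all measured genes, with 53 of 75 members above the all-gene median and 22 below it. Genes of like signal gave a close value for comparison: the 1710 genes between the quartiles of the members' mean signal, from 702 to 1730, had a median of -0.03, and the 37 members in that range 0.065. In size the differences were small, and 0 genes were at least 1.5-fold higher or lower, against 4.69% and 7.55% of all measured genes and 1.74% and 3.53% of those with a mean signal of 100 or more. MRPS18B (0.55, with -0.03 in its second probe set), MRPL2 (0.51, with 0.16 in its second probe set) and MRPS27 (0.38) were the highest. MRPL12, the stalk protein that binds translation factors, differed by 0.34, with 719 at 24 h, against 567 at 6 h and 702 in untreated cells. MRPS34 differed by 0.32 and MRPL14 by 0.29. MRPL18, of the central protuberance, was the lowest at -0.42, with 1752 at 24 h and 2340 at 6 h. MRPS26 (-0.40), MRPL27 (-0.29), MRPL32 (-0.21) and MRPL54 (-0.20) were the next lowest among genes whose probe sets shared a direction.

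Over the time course, 40 of 75 genes were below untreated cells at both times and 14 above at both. A further 15 were lower at 6 h and higher at 24 h, and 6 were higher at 6 h and lower at 24 h. Both comparisons share the untreated array, so these counts are not independent. All 6 of the last kind were MRPL genes, among them MRPL18 and MRPL27, and their 6 h differences were 0.18 or less. Most measured genes were also below untreated cells, 7182 of 11330 at 6 h and 7430 at 24 h. Of the 75 members, 55 and 46 were. The share of all genes below at both times was not computed. These signs hold for the deposited scale only. After quantile normalization the family's median was above untreated cells, at 0.0425 at 6 h and 0.0981 at 24 h.

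The large and small subunits had close medians at 6 h, and the small subunit was the higher at 24 h. At 6 h the median difference was -0.10 for MRPL genes and -0.09 for MRPS genes. At 24 h it was -0.09 for MRPL genes and 0.03 for MRPS genes, a gap of -0.12 on the log2 scale. The gap was negative under all 12 alternatives that gave one, from -0.27 to -0.11, and it has no test. Several of these could not move it. Level filters, floors and constant shifts between arrays leave the differences between members' brightest probe sets as they are. The -0.27 came from leaving out cross-hybridising probe set types, which left 42 genes, some of them by dim probe sets. Means gave a smaller gap at 24 h, of -0.07, with -0.06 for MRPL genes and 0.01 for MRPS genes. The SD over single genes at 24 h was 0.18 in the 48 MRPL genes and 0.23 in the 27 MRPS genes. Of MRPS genes 20 of 27 lay above the median of all genes at 24 h, and of MRPL genes 28 of 48. Between 24 h and 6 h the medians were 0.04 for MRPL genes and 0.09 for MRPS genes. The small subunit held both genes past 1.5-fold, MRPS31 and MRPS26, and its values at 24 h ran from -0.67 to 0.52, against -0.31 to 0.58 in the large subunit.

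Some symbols do not say where the protein sits. MRPS30 and MRPS18A, though named after the small subunit, belong to the large subunit in structures of the mammalian mitochondrial ribosome. Counting them there left the 24 h gap at -0.12. MRPS18A, MRPS18B and MRPS18C are all related to the bacterial small subunit protein S18, and their transcripts went different ways at 24 h. MRPS18A had 459 at 24 h and 510.4 in untreated cells (-0.15), and MRPS18C had 1287 at 24 h and 1524 in untreated cells (-0.24), while MRPS18B was higher as given above.

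**Figure D3:**
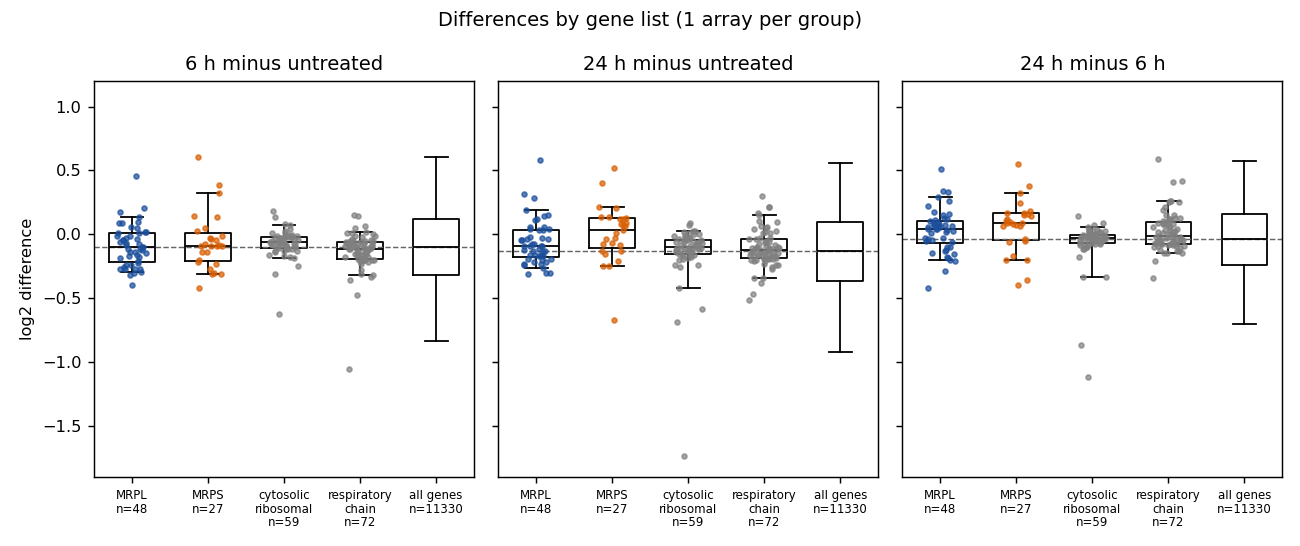
Log2 differences of MRPL, MRPS, cytosolic ribosomal protein, respiratory chain and all measured genes in the 3 comparisons, with points for genes (not drawn for all genes), boxes for the middle 50%, whiskers from the 5th to the 95th percentile and a dashed line at the median of all measured genes. The members centre on that line at 6 h and lie slightly above it at 24 h minus 6 h, and their spread is narrower than that of all genes.

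Read by place in the ribosome, genes of one region did not share a direction at both times. Around the peptidyl transferase centre, MRPL2, MRPL3, MRPL16 and MRPL27 differed by -0.40, -0.09, 0.09 and 0.05 at 6 h and by 0.12, -0.02, 0.19 and -0.23 at 24 h. The second probe set of MRPL2, with 129 without FK866 and 86.6 after 24 h, lay at -0.58 at 24 h, opposite to the first, so its direction there is not settled. In the stalk that recruits translation factors, MRPL10, MRPL11 and MRPL12 differed by -0.26, -0.29 and -0.31 at 6 h, and by -0.31, -0.13 and 0.04 at 24 h. So the 3 stalk genes were alike at 6 h, and MRPL10 alone kept its distance at 24 h. Along the exit tunnel, MRPL22, MRPL23 and MRPL24 differed by 0.01, -0.15 and -0.27 at 6 h and by -0.17, -0.30 and -0.10 at 24 h, whereas MRPL45 had 0.45 and 0.58. In the central protuberance, MRPL38, MRPL40, MRPL46 and MRPL48 lay between -0.17 and 0.14 at both times, while MRPL18 lay outside that range at both, with 0.18 at 6 h and -0.24 at 24 h. MRPS12, the decoding centre protein, differed by -0.14 and -0.07. MRPL58, a peptidyl-tRNA hydrolase that became a ribosomal subunit, differed by -0.10 and -0.03, and MRPL44, with its ribonuclease III-like fold, by -0.04 and -0.04. The second probe set of MRPL44, with a mean signal of 134, lay at -0.43 and 0.23. These regions were chosen for description after the values were seen.

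Probe sets of the same gene bound how closely these values can be read. For the 31 members with several measured probe sets, the pooled SD of the log2 difference between probe sets was 0.38 at 6 h and 0.35 at 24 h, against 0.37 and 0.37 over all genes. Between probe sets of 500 or more it was 0.12 at 6 h and 0.18 at 24 h in 8 members. In 14 of the 31 all probe sets were lower at 6 h, in 3 all were higher, and 14 were mixed. At 24 h, 9 were all lower, 6 all higher and 16 mixed. This spread covers probe error and transcript isoforms, not variation between cultures, and most members differed from untreated cells by less than it.

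Dim probe sets gave lower values than bright ones of the same family. Of the 22 member probe sets with a mean signal under 100, 8 were at least 1.5-fold lower at 6 h and 1 at least 1.5-fold higher, with a median of -0.34. Over all genes the same signal range gave a median of -0.16, with 1942 of 8811 probe sets at least 1.5-fold lower. At 24 h, 7 of the 22 were lower by that size (31.8%), against 25.1% over all genes. The filter bears on these counts, because a dim probe set can reach a mean of 20 through its untreated signal alone. Probe sets of MRPL39 (31.6, 14.4 and 14.4 at 0 h, 6 h and 24 h) and MRPL12 (36.7, 7.7 and 18.8) did so. The dimmest of MRPS15, given below, did so too. Low treated values among dim probe sets are thus partly set by the filter. Of the 75 member probe sets with a mean signal of 500 or more, 0 passed 1.5-fold in either direction at 6 h or at 24 h. Over all genes at that signal, 1.44% of probe sets were higher and 4.53% lower at 6 h, and 0.987% and 6.71% at 24 h. MRPS15 shows the contrast. Its brightest probe set differed by -0.30 at 6 h and -0.21 at 24 h, while its dimmest had 43.6 in untreated cells, 16.1 at 6 h, a log2 difference of -1.44, and lay under the floor at 24 h. MRPS11 had a bright probe set at 0.05 and 0.13 and a dim one with 57.3, 27.3 and 28.7 over the 3 arrays, -1.07 at 6 h. MRPS12 had 4 probe sets, from -0.42 to 0.86 at 6 h, the highest of them with only 18.1 in untreated cells. The members just inside a mean signal of 20 were probe sets of MRPL39 (20.1) and MRPL12 (21.1), and those just outside belonged to MRPL20 (16.9) and MRPL23 (15.6).

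**Figure D4:**
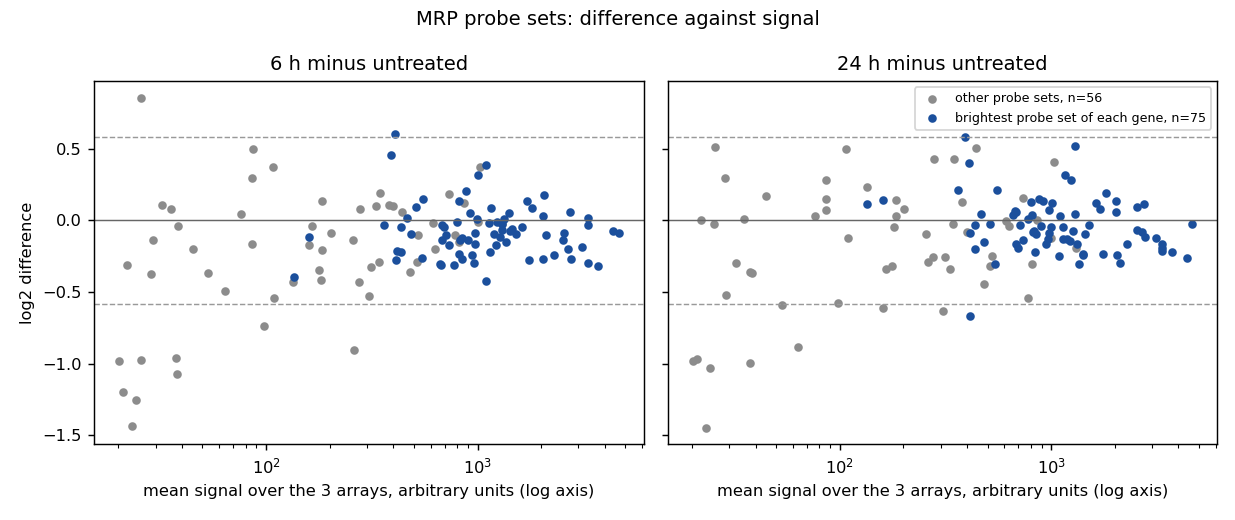
Log2 difference of the 131 measured probe sets of protein-coding members against mean signal over the 3 arrays on a log axis, for 6 h minus untreated and 24 h minus untreated, with the brightest probe set of each gene in blue and the others in grey, and dashed lines at 1.5-fold. The widest differences lie at signals under 100, among probe sets that do not give a gene its value.

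Genes that work with the mitochondrial ribosome were compared by lists. Of 5 structural subunits under other names, 4 were measured and 0 passed 1.5-fold. DAP3, the GTP-binding protein of the small subunit, differed by -0.12 at 6 h and -0.11 at 24 h, PTCD3 by -0.13 and -0.04, CHCHD1 by -0.05 and -0.06, and GADD45GIP1 by -0.28 and -0.33. Of 26 assembly and ribosomal RNA modification factors, 25 were measured, and 2 were at least 1.5-fold higher and 0 lower at each time. Of all measured genes, 5.38% were higher and 10.4% lower by that size at 6 h, and 4.52% and 13.2% at 24 h. The medians of the 25 factors were -0.03 at 6 h and 0.02 at 24 h, and 21 of 25 lay above the median of all genes at 24 h. METTL15, the methyltransferase of the small subunit's ribosomal RNA, had 59.8 without FK866, 204 after 6 h and 112.0 after 24 h, or 1.77 and 0.91 on the log2 scale. Its second probe set lay at 0.70 and 0.15. MRM1, a methyltransferase of the large ribosomal RNA, had 30.2, 63.6 and 49.4, close to the floor. TFB1M, which dimethylates the small ribosomal RNA, differed by 0.42 and 0.46, and NOA1, a GTPase of small subunit assembly, by 0.34 and 0.43. The second probe set of TFB1M lay at 0.58 and 0.04. The lowest were MTG2 at -0.34 and -0.45, whose 4 probe sets ran from -1.13 to 0.74 at 6 h, and MRM3 at -0.32 and -0.29.

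Of 17 mitochondrial translation factors, 14 were measured and 0 passed 1.5-fold at either time by their brightest probe set. Of all measured genes, 5.38% were higher and 10.4% lower by that size at 6 h, and 4.52% and 13.2% at 24 h. The medians of the 14 factors were -0.02 at 6 h and -0.12 at 24 h. The initiation factor MTIF2 was the highest at 6 h, with 0.26 and, at 24 h, 0.25, and the elongation factor GFM1 the lowest, with -0.18 and -0.29. TUFM, the factor that delivers aminoacyl-tRNAs, differed by -0.04 and 0.10, but its second probe set lay at 0.14 and -0.67. Among 9 genes of mitochondrial DNA upkeep and transcription, POLG2, the accessory subunit of the mitochondrial DNA polymerase, was the only one past 1.5-fold, against 13.2% of all genes lower by that size, at -0.79 at 24 h (121.6 at 24 h and 211 in untreated cells). MTERF1 and the RNA polymerase POLRMT were the highest at 6 h, with 0.49 and 0.47, and the second probe set of POLRMT lay at -0.57. Transcripts encoded in mitochondrial DNA were searched only as single symbols beginning with MT-, and 0 were found. Other spellings were not searched, so the messages that this ribosome translates were not analysed here.

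Set beside the 59 measured cytosolic ribosomal protein genes, the mitochondrial family had like medians, with an SD over genes of 0.19 against 0.11 at 6 h and 0.20 against 0.25 at 24 h. The cytosolic spread at 24 h includes 3 genes at least 1.5-fold lower, and dim probe sets gave the values of RPLP2 and RPL36A. RPLP2, at -1.74, had signals of 95.7, 62.1 and 28.7 at 0 h, 6 h and 24 h. RPL36A, at -0.68, had 27.8, 31.5 and 17.3 in the same order. RPL22L1, at -0.59, was brighter, with 2207 in untreated cells and 1468 at 24 h. The cytosolic SD without the dim probe sets was not computed. The cytosolic medians were -0.06 at 6 h and -0.10 at 24 h, with an interquartile range at 6 h of -0.11 to -0.02. Genes of the respiratory chain and ATP synthase had medians of -0.11 and -0.12 over 72 symbols, among them the dim pseudogene ATP5MC2P1. Between the treated arrays the medians were -0.03 for cytosolic ribosomal proteins, -0.01 for the respiratory chain and 0.065 for the mitochondrial family. None of these differences between lists was tested.

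ETS factors such as GABP, YY1 and NRF1 are known regulators of nuclear genes for mitochondrial proteins, so the promoters of the members were searched for their motifs. In RefSeq windows from 250 bases before to 50 bases after the annotated start (GRCh38.p14), 67 of the 75 genes were matched. The ETS letters CCGGAAG, read on both strands, were in 28 of 67 windows (41.8%), against 1857 of 9284 windows of measured genes and 10.7% of all 27305. The YY1 letters AAGATGGC were in 19 (28.4%), against 5.74% and 3.03%, and 14 of their 20 sites lay after the start. The consensus of NRF1 was in 8 (11.9%), against 12.3% and 6.28%. The ETS and YY1 letters can overlap by their AAG, but 0 sites of the members did. The members below are shown by the 250 bases before the start, in the gene's direction, with motif matches in capitals: the highest at 6 h, the highest and the lowest at 24 h, and MRPL51, which differed by -0.03 and -0.16.
MRPS31, chr13:40771191-40771440, minus strand: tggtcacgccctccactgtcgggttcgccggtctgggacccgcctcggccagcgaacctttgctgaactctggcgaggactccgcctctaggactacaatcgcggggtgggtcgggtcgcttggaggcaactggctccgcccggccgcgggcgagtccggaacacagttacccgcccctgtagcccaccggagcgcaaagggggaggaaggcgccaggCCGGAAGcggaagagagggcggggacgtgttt
MRPL45, chr17:38296918-38297167, plus strand: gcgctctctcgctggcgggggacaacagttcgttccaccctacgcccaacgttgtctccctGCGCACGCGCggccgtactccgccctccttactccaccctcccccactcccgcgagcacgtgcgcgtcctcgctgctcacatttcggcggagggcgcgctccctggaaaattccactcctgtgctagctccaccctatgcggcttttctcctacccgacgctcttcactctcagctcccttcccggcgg
MRPS26, chr20:3045802-3046051, plus strand: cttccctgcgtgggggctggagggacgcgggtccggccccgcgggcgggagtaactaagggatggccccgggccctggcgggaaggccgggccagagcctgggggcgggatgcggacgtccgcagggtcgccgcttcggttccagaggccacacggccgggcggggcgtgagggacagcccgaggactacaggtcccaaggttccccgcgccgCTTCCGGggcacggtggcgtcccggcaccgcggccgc
MRPL51, chr12:6493263-6493512, minus strand: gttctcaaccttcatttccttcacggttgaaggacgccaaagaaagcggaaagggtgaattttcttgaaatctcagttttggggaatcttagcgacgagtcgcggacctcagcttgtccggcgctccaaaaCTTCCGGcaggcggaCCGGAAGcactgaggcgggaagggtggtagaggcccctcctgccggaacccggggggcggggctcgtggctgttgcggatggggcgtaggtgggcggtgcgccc
MRPS31 and MRPS26, which lay on opposite sides of untreated cells, each hold 1 ETS match here, MRPL51 holds 2, and MRPL45 holds 1 NRF1 match. MRPL45 and MRPL51 also have 1 YY1 match each after the start, beyond the bases printed. Members with and without the ETS letters had medians of -0.10 and -0.07 at 6 h and -0.07 and -0.04 at 24 h. With and without the YY1 letters, the medians were -0.09 and -0.09 at 6 h and -0.12 and -0.04 at 24 h. The 8 members with the NRF1 consensus had medians of -0.01 at 6 h and 0.08 at 24 h. In the 59 members without it they were -0.09 and -0.07. This was the widest gap of the 3 motifs at both times, and it has no test. A match is a description of letters, not a bound site.

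The regulators themselves were measured too. YY1 had 2850.1 without FK866, 2360.2 after 6 h and 2033 after 24 h, log2 differences of -0.27 and -0.49, and all 6 of its probe sets were lower at both times. GABPA differed by -0.15 and -0.37 with 2 of 2 probe sets lower, and its partner GABPB1 by 0.17 and -0.21. The second probe set of GABPB1 lay at -0.27 and -0.18. NRF1 differed by -0.12 and -0.18, and its 5 probe sets ran from -0.69 to 0.31 at 6 h. The coactivator PPARGC1B was the only one of these 9 regulators past 1.5-fold at 24 h, where 4.52% of all genes were higher by that size, with 141 without FK866, 192 after 6 h and 262 after 24 h, or 0.90 at 24 h. Its second probe set lay at 0.14. PPRC1 and ESRRA were the lowest at 6 h, with -0.51 and -0.45.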

How the data were processed

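One array per group was analysed, from MM1S cells untreated or given 10 nM FK866 for 6 h or 24 h. Per the labels' protocols, RNA was extracted with a Qiagen kit and 1 µg of it was turned into biotin-labelled cRNA. The values deposited by the authors are linear intensities, 1 for each probe set on each array. Probe summary, background correction and scaling are not given in the sources used here, and 1 array per group limits the precision.

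Probe sets were named from GEO's platform annotation, dated 2016. Signals under 16 were set to 16 and log2 values taken. A probe set was measured when its mean deposited signal was 20 or more, and a gene has the value of its measured probe set with the highest mean. Differences are log2, described by a size of at least 1.5-fold with no test. Genes were named by a rule: members past that size, the 5 highest and 5 lowest of each comparison among genes whose probe sets share a direction, the 5 highest signals, the widest probe set ranges, and members whose place in the ribosome differs from their name. Members, lists and size were chosen with earlier results of these data known. The steps were tested on simulated data. Alternatives covered scaling, filter, floor, probe set summary, cross-hybridisation, size and membership. Python 3.11.15, numpy 2.4.6, pandas 2.3.3 and matplotlib 3.10.9 were used.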

Additional observations from a re-analysis of the deposited data

How the results depend on the processing

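The members were recomputed under 13 alternatives. Quantile normalization gave family medians of 0.0425 at 6 h and 0.0981 at 24 h, and centring the array medians gave 0.14 and 0.18. The median of all genes moved with them, to 0.03 and 0.05 and to 0.13 and 0.12, so the family's distance from it did not turn. At 24 h the genes at least 1.5-fold higher and lower numbered 2 and 0 after quantile normalization, 3 and 0 after centring, and 2 and 0 with the median difference of all genes subtracted, which left a family median of 0.0629. Of all genes, 9.19%, 10.6% and 7.18% were then higher and 7.31%, 6.44% and 8.98% lower. Centring also gave 3 higher genes at 6 h, against 11.5% of all genes. MRPL45 and MRPS18B were higher and MRPS26 was no longer lower under these 3 scalings. With no filter on level, the family's distance from all genes was -0.0925 at 6 h and -0.065 at 24 h, and with a floor of 64 it was -0.0826 and -0.0393. At 6 h both settings put 20 members above the all-gene median and 55 below, against 42 and 33 otherwise reported, the median of all genes then being 0.00 and -0.01. A gene under the floor on both arrays has a difference of exactly 0, and both settings count more such genes. By the mean over probe sets, 0 genes were higher and 1 lower (MRPL12) at 6 h (4.48% and 10.6% of all genes), 2 were lower (MRPS15 and MRPS26) at 24 h (13.3%), and MRPS31 turned to -0.18 at 6 h. With every probe set counted by itself, of 131 2 were higher and 9 lower at 6 h (5.22% and 13.1% of all 21495), 10 lower at 24 h (15.8%), and 5 higher at 24 h against 6 h (5.45%). Leaving out cross-hybridising probe set types, 42 genes were left, among them neither MRPL45 nor MRPS26. Then 4 were lower at 6 h and 5 at 24 h, against 12.1% and 15.2% of all genes. MRPL12, MRPL39 and MRPS15, among them at both times, then rested on probe sets of mean signal 21.1, 20.1 and 23.2. Each of these was under the floor on a treated array, and the brightest probe sets of the 3 genes lay at -0.31, 0.01 and -0.30 at 6 h. Under this setting the MRPL median minus the MRPS median was -0.12 at 6 h and -0.27 at 24 h. At 2-fold, 0 genes passed in either direction in each comparison. Over all alternatives, several of which could not move it, the gap between subunits at 24 h ran from -0.27 to -0.11. The family's median of 24 h minus 6 h, less that of all genes, ran from 0.065 to 0.10. No paired analysis was possible because each group has 1 array, with no test. Low signals limit dim probe sets: several lay under the floor on treated arrays.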

Other observations

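Some probe sets of the family carry several gene symbols and gave no gene a value. The probe set shared by MRPS24 and the URGCP-MRPS24 readthrough gene gave 5224 without FK866, then 4849 and 5066 after 6 h and 24 h. The probe set of MRPL53 and CCDC142 had 2092, 2008 and 2127 in the same order, and that of MRPL51 and SPTLC1 had 672, 479 and 629.7. The dim probe set of MRPS31P5 and THSD1 had 63.1, 53.6 and 39.9. The antisense RNA MRPL20-AS1 gave 348 without FK866, then 467 and 360.0 after 6 h and 24 h, log2 differences of 0.43 and 0.05, whereas MRPL20 itself lay at -0.32 and -0.22. Whether the probes of the sense and antisense transcripts can be told apart was not tested.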
